A study of Mus musculus with 10 samples.

Results

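The solute carrier family Slc25 is the family of mitochondrial carriers, the proteins that move metabolites, nucleotides, cofactors and ions across the mitochondrial inner membrane. Its members were taken by name, as every gene entry whose symbol begins with Slc25a, and no such entry was dropped for its expression. Earlier results of these data were known when the members were chosen. There were 44 such entries among 14812 in the tables, and all 44 had at least 1 unique molecular identifier (UMI, a tag that marks 1 captured RNA molecule). Uncoupling proteins whose symbols begin with Ucp share the carrier fold but are not among the members.

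A carrier of this family is a small protein built from repeats of paired membrane helices, and most members exchange a molecule of the cytosol for one of the matrix. ADP enters and ATP leaves through the adenine nucleotide carriers, and phosphate enters through its own carrier. In the liver the family also joins pathways that are split between the compartments: ornithine and aspartate carriers serve the urea cycle, the citrate carrier exports carbon for lipid synthesis, and the carnitine-acylcarnitine carrier brings fatty acids to oxidation. Hepatocytes along the lobule divide this work, since cells near the portal vein (periportal) lead in urea synthesis and gluconeogenesis and cells near the central vein (pericentral) in glutamine synthesis and drug metabolism.

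The study measured mRNA in single hepatocytes of the mouse liver at 4 times of day, with position in the lobule as a second axis. Mice were C57BL/6 males of 3 months on regular chow that they could eat at any time, with no mutation or drug treatment named, and each was anaesthetised with ketamine and xylazine before the liver was perfused with collagenase and hepatocytes were purified on Percoll. Zeitgeber time (ZT) counts hours of the light-dark cycle from lights on. Libraries A, B and C were made for ZT0, A and B for ZT6, A, B and C for ZT12, and A and B for ZT18, from polyadenylated RNA with version 2 of the 10x Chromium 3' kit. The number of mice behind a library is not given in the labels. The p-values over time measure the spread between libraries, and those along the lobule the spread of differences within libraries. Both spreads may be partly technical.

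The 10 libraries held 710 to 2860 cells and 1454623 to 7144803 UMIs each, with 1588 to 2662 UMIs in the median cell. A level is given as UMIs of a gene per 1000000 UMIs of the library (CPM). Hepatocyte markers summed to 38054 to 71360 CPM, and markers of endothelial cells, macrophages, stellate cells, lymphocytes and neutrophils each summed to at most 15.0. Cholangiocyte markers summed to at most 32.5. Erythroid markers, 5 of 7 of which were in the tables, summed to 72.2 to 108 CPM at ZT0, ZT6 and ZT12 and to 99.0 to 361 at ZT18. The kit counts each captured molecule once at its 3' end, so CPM is not divided by transcript length, and levels of different members can be set side by side as molecules captured.

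Few members made up most of the family's transcripts. Of the 44, 10 had a mean of at least 100 CPM over the 10 libraries, 15 had 10 to 100, 6 had 3 to 10 and 13 were below 3. Slc25a47 (490.4 CPM) and Slc25a5 (434 CPM) together held 27.5% of the summed level, and the 10 highest members held 80.4%. Below 1 CPM were 8 members, among them Slc25a24 with 1 UMI and Slc25a43 with 2 UMIs in all cells together. Listed carriers with the same cargo often differed widely in level. The adenine nucleotide carrier Slc25a5 stood 336 times above its relative Slc25a4, and Slc25a13 stood 17.9 times above Slc25a12, each time higher in 10 of 10 libraries. The ornithine carrier Slc25a15 had 10606 UMIs in all cells, while Slc25a2 had 14, with none in 2 libraries.

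**Figure D1:**
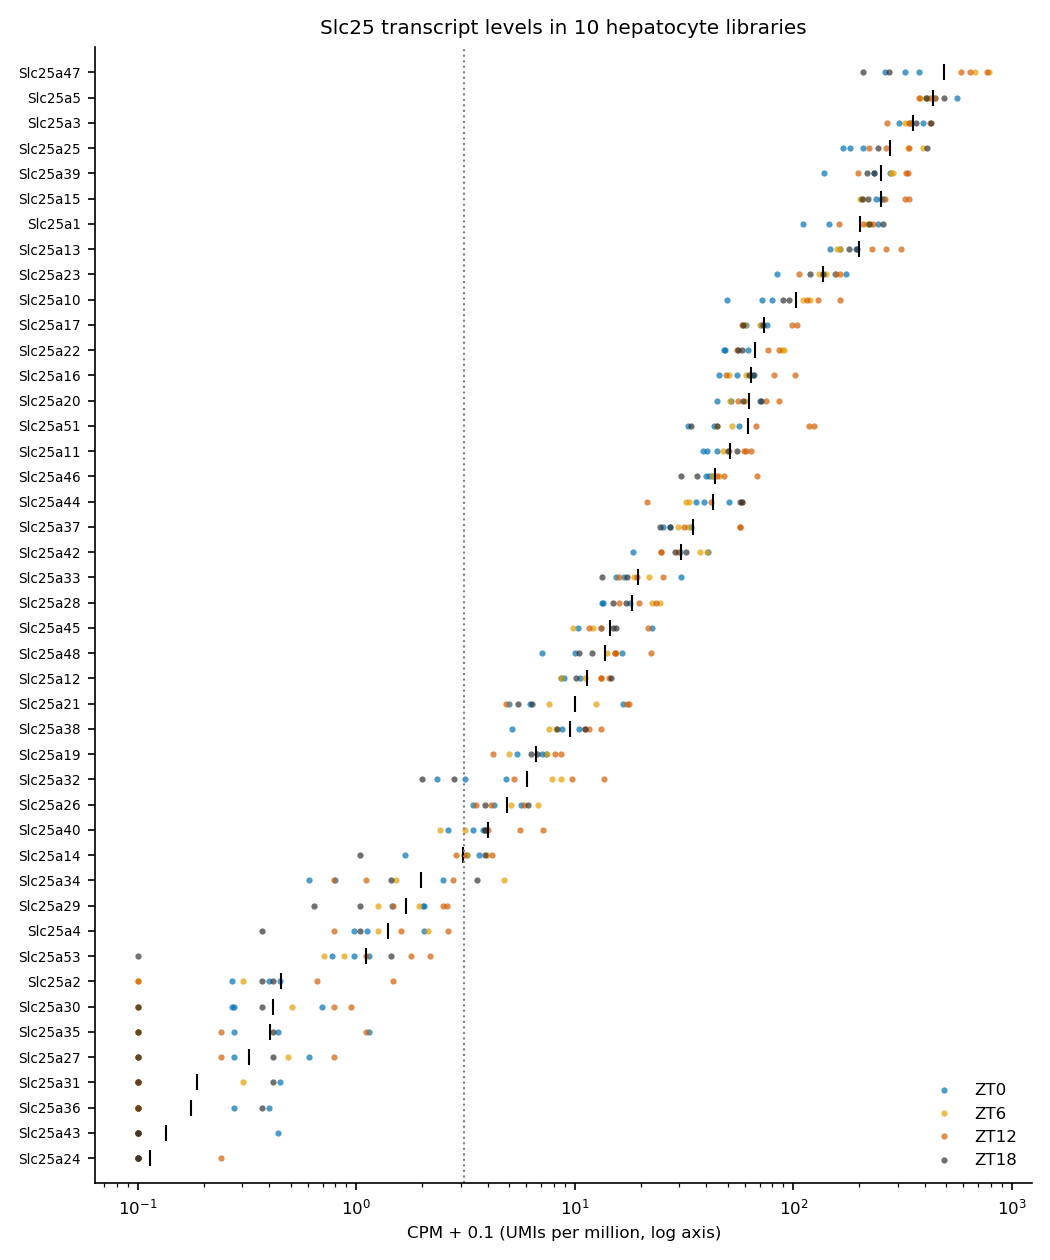
Level of each of the 44 members in CPM plus 0.1 (log axis), with 1 point per library coloured by time and a black tick at the mean of 10 libraries. The dotted line marks 3 CPM, the minimum mean for the tests over time; Slc25a47 and Slc25a5 lie at the top, and 13 members have means below the line, of which Slc25a14 reached the minimum over the zone sums.

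The first comparison asked how the carriers are placed along the lobule. The cells of each library were ordered by 8 periportal minus 8 pericentral landmark genes, none of them a carrier, and cut into 3 equal zones. The test took in 32 members with a mean of at least 3 CPM over the zone sums, the 31 that reach it over whole libraries and Slc25a14 (2.97 CPM there), and 16 differed between the periportal and the pericentral zone by edgeR's quasi-likelihood test (Benjamini-Hochberg adjusted p under 0.05 over all genes tested, library as a block). The share of members called was 50.0%, where 24.6% of all 8907 genes tested were called. Of the 32 members tested, 8 were called higher periportally, as were 11.9% of all genes tested, and 8 higher pericentrally, as were 12.7%. The median size of the difference, in either direction, was 0.25 on the log2 scale over the members and 0.19 over all genes.

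The split by direction depended on scaling. With library size alone in place of the trimmed mean of M values (TMM), 15 members were called, 4 of them periportal and 11 pericentral, and the median difference of all genes moved to -0.11. Under that scaling Slc25a3, Slc25a11, Slc25a15 and Slc25a39 were no longer called, and Slc25a1, Slc25a10 and Slc25a17 were. The mitochondrial share of UMIs moved with the zones: it was higher in the periportal zone in 10 of 10 libraries, with medians of 15.2% pericentrally and 18.6% periportally, and its part in the zone results was not tested. With mitochondrially encoded genes left out before scaling, 16 members were called, 8 in each direction. Without the cells of highest mitochondrial share, Slc25a45 alone of the 16 members called in the main test lost its zone call. Among cells with at least 3000 UMIs, a smaller set, 8 members were called, 4 in each direction: Slc25a3, Slc25a5, Slc25a47 and Slc25a51 periportal, and Slc25a21, Slc25a33, Slc25a37 and Slc25a42 pericentral. DESeq2 called 14 members, all but Slc25a11 and Slc25a45.

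**Figure D2:**
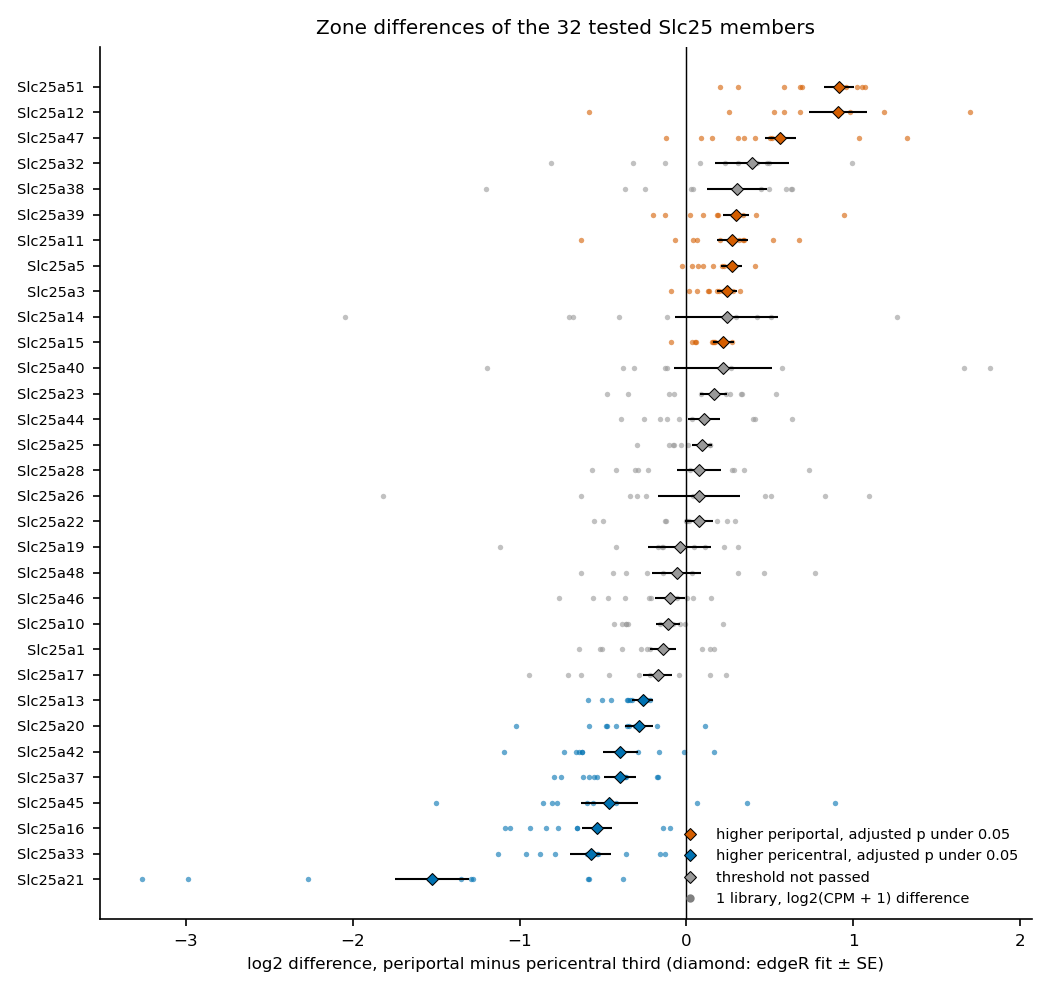
Zone difference on the log2 scale, periportal minus pericentral, for the 32 tested members: diamonds with bars are the edgeR estimate ± SE from 10 libraries, and small points are single libraries as log2(CPM + 1) differences. Slc25a51, Slc25a12 and Slc25a47 have the largest periportal estimates among those called, and Slc25a21 lies farthest to the pericentral side at -1.52.

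Of the 4 carriers of adenine nucleotides and phosphate tested, 2 were called by zone. Both, the ADP/ATP carrier Slc25a5 and the phosphate carrier Slc25a3, were higher periportally. Slc25a5 had 353 to 498 CPM (median 383) in the pericentral zones and 385 to 577 (median 452) in the periportal ones. The ranges overlapped between libraries, but within a library the periportal zone was higher in 9 of 10, and the difference was 0.27 ± 0.06 (SE, n = 10, adjusted p = 0.000832). Slc25a3 had 231 to 436 CPM (median 326) pericentrally and 288 to 455 (median 351) periportally, a difference of 0.24 ± 0.06 (SE, adjusted p = 0.00283) seen in 9 of 10 libraries.

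Neither gene was called by time of day. Slc25a5 had 560, 444 and 411 CPM in libraries A, B and C at ZT0, 406 and 379 at ZT6, 424, 445 and 378 at ZT12, and 407 and 489 at ZT18. Slc25a3 had 304, 346 and 393 CPM at ZT0, 337 and 325 at ZT6, 269, 339.6 and 424 at ZT12, and 363 and 429 at ZT18. For Slc25a5 the ZT0 libraries lay above both of ZT6, and for Slc25a3 those of ZT18 lay above both of ZT6, but the ZT12 range overlapped that of every other time for both genes. The rhythm test gave adjusted p = 0.504 and 0.574.

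The ATP-Mg/phosphate carriers Slc25a25 and Slc25a23, which adjust the adenine nucleotide pool of the matrix, did not pass the zone test (differences of 0.09 and 0.16, adjusted p = 0.303 and 0.153). Slc25a25 had 168, 209 and 181 CPM at ZT0, 393 and 335 at ZT6, 221, 264 and 336 at ZT12, and 244 and 411 at ZT18. Every library at the other 3 times lay above the 3 at ZT0, but the 2 at ZT18 were far apart, and the 24-h rhythm test was not passed (adjusted p = 0.731). Slc25a23 had 84.5, 174 and 155 CPM at ZT0, 141 and 131 at ZT6, 106, 156 and 164 at ZT12, and 137 and 119 at ZT18, a spread within ZT0 as wide as that over all times.

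Amino acid carriers went both ways, including a pair with the same cargo. Slc25a12 and Slc25a13 both export aspartate from the matrix in exchange for glutamate, and so supply the malate-aspartate shuttle and, in the liver, aspartate for the urea cycle. Slc25a13, the abundant one, was higher pericentrally: 170.2 to 383 CPM (median 216) in the pericentral zones and 127 to 255 (median 165) in the periportal ones. Its difference was -0.26 ± 0.06 (SE, adjusted p = 0.00153), with the pericentral zone higher in 10 of 10 libraries. Slc25a12 was higher periportally, at 5.13 to 13.1 CPM (median 7.21) pericentrally and 7.61 to 22.6 (median 14.2) periportally, a difference of 0.91 ± 0.17 (SE, adjusted p = 0.000105) seen in 9 of 10 libraries. In 9 of 10 libraries the zone difference of Slc25a12 lay above that of Slc25a13, the exception being ZT6 B, where Slc25a12 had 11.9 CPM pericentrally and 7.61 periportally. Slc25a12 rests on 477 UMIs in all cells. Among cells with at least 3000 UMIs neither Slc25a12 nor Slc25a13 passed the zone test (adjusted p = 0.277 and 0.113).

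The promoters of this pair are shown because the genes share a cargo and differed in zone. Each is the RefSeq window of 300 bases, from 250 before to 50 after the annotated start, on build GRCm38.p6, printed 5' to 3' on the gene's strand; capitals mark an E-box (CACGTG). Slc25a13 lies at chr6:6217124-6217423 on the minus strand and Slc25a12 at chr2:71367706-71368005 on the minus strand.
Slc25a13: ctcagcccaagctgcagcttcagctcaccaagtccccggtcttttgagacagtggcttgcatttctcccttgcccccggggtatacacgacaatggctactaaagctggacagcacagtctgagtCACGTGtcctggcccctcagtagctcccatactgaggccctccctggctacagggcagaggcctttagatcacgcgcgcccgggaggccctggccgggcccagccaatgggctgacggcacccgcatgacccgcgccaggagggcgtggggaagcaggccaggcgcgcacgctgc
Slc25a12: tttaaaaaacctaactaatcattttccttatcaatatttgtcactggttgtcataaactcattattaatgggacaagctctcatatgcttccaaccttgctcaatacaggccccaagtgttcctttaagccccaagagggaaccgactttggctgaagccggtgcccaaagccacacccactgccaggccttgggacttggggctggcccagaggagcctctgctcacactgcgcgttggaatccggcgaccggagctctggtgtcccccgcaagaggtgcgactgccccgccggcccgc
The letters CACGTG occur once in the first window and not in the second. Among all 32851 promoter windows 7.15% hold them, and 8 of the 44 windows of the 34 members in the table do. A match is a description of letters only, and no binding was measured.

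Slc25a13 had 163, 147 and 194 CPM in the libraries at ZT0, 158 and 163 at ZT6, 309, 229.5 and 264 at ZT12, and 196 and 179.7 at ZT18. All 3 libraries at ZT12 lay above the other 7, but the gene passed neither the rhythm test (adjusted p = 0.213) nor that of ZT12 against ZT0 (0.53 ± 0.19, SE, adjusted p = 0.175). With the column of the 10x sample index as a block it did pass the latter (adjusted p = 0.0343).

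Slc25a15, the ornithine carrier of the urea cycle, was higher periportally by 0.22 ± 0.06 (SE, adjusted p = 0.00688). Its levels were 179 to 326 CPM (median 239.7) in the pericentral zones and 199.9 to 329.9 (median 259) in the periportal ones, and the periportal zone was higher in 9 of 10 libraries. By library it had 258, 239 and 253 CPM at ZT0, 207 and 201 at ZT6, 337, 263 and 325 at ZT12, and 219.7 and 206 at ZT18, with no rhythm called (adjusted p = 0.854). The glutamate carrier Slc25a22, the glycine carrier Slc25a38 and the branched-chain amino acid carrier Slc25a44 were not called by zone (differences of 0.07, 0.30 and 0.11, adjusted p = 0.593, 0.241 and 0.485).

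Among the 5 carriers of carboxylates and acylcarnitines, 1 was higher periportally and 2 pericentrally. Slc25a21, which carries 2-oxoadipate in the breakdown of lysine and tryptophan, had the largest zone difference of any member called. It had 4.28 to 34.8 CPM (median 10.7) in the pericentral zones and 1.09 to 7.62 (median 3.81) in the periportal ones, and the pericentral zone was higher in 10 of 10 libraries. The difference was -1.52 ± 0.22 (SE, adjusted p = 1.48e-06). It rests on few molecules, with 369 UMIs of the gene in all cells. In the GENCODE M21 annotation an exon of Pax9 overlaps Slc25a21 on the opposite strand, and exons of Slc25a10, Slc25a11, Slc25a23, Slc25a25, Slc25a33 and Slc25a37 also meet a transcript of the other strand. The sources used here do not state whether counting used the strand, so these levels may hold reads of the partner.

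Slc25a20, the carnitine-acylcarnitine carrier, was also higher pericentrally, with 44.0 to 114 CPM (median 75.7) there and 44.3 to 70.2 (median 55.6) periportally. The difference was -0.28 ± 0.08 (SE, adjusted p = 0.00962) and was seen in 9 of 10 libraries; it was not called when cells were ordered by the even-numbered landmarks alone. The 2-oxoglutarate/malate carrier Slc25a11, the partner of the aspartate carriers in the malate-aspartate shuttle, was higher periportally by 0.27 ± 0.09 (SE, adjusted p = 0.0278), in 8 of 10 libraries. That call was lost in 6 of 13 alternative settings and without any 1 of 5 libraries (ZT0 C, ZT12 A, ZT12 B, ZT12 C or ZT18 B), with adjusted p up to 0.319.

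The citrate carrier Slc25a1, which exports citrate for fatty acid synthesis, did not pass the zone test (-0.14 ± 0.08, SE, adjusted p = 0.192). It had 111, 244 and 145 CPM at ZT0, 217 and 225 at ZT6, 162, 208 and 231 at ZT12, and 256 and 221 at ZT18, and the rhythm test gave adjusted p = 0.891. The dicarboxylate carrier Slc25a10 did not pass the zone test either (-0.11 ± 0.07, SE, adjusted p = 0.306), and its course over the day is given further on.

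Cofactor and nucleotide carriers held the member with the smallest adjusted p of the zone test. Slc25a51, the carrier that brings NAD+ into mitochondria, had 20.5 to 97.9 CPM (median 35.7) in the pericentral zones and 34.1 to 157 (median 63.2) in the periportal ones. The periportal zone was higher in 10 of 10 libraries, and the difference was 0.92 ± 0.09 (SE, adjusted p = 2.93e-10). Over 8 layers of equal cell number its mean rose from 32.1 ± 15.2 CPM (SD, n = 10) in the pericentral end layer to 81.3 ± 43.2 in the periportal one. These SDs include the differences between times.

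Other cofactor carriers were higher pericentrally. Slc25a16 and Slc25a42, both linked to coenzyme A in mitochondria, differed by -0.53 ± 0.09 (SE, adjusted p = 1.51e-05) and -0.40 ± 0.11 (SE, adjusted p = 0.00483). Slc25a16 had 54.9 to 139 CPM (median 74.7) pericentrally and 33.7 to 77.2 (median 52.0) periportally, and the pericentral zone was higher in 10 of 10 libraries. Slc25a42 had 24.8 to 50.7 CPM (median 35.4) pericentrally and 15.7 to 40.2 (median 27.2) periportally, and the pericentral zone was higher in 9 of 10; that call was lost without the 5% of cells richest in UMIs (adjusted p = 0.0541). The pyrimidine nucleotide carrier Slc25a33 had 15.3 to 41.7 CPM (median 22.2) pericentrally and 10.2 to 21.1 (median 16.5) periportally, a difference of -0.57 ± 0.12 (SE, adjusted p = 0.000528) seen in 10 of 10.

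Iron and glutathione carriers split as well. Slc25a37 (mitoferrin 1), which imports iron and is best known from red cell precursors, was higher pericentrally, with 28.6 to 76.2 CPM (median 36.0) there and 18.3 to 49.1 (median 26.5) periportally. The difference was -0.40 ± 0.10 (SE, adjusted p = 0.00171), and the pericentral zone was higher in 10 of 10 libraries. Erythroid markers summed to 99.0 and 361 CPM in the ZT18 libraries and to at most 108 in the other 8. Slc25a37 had 24.5 and 27.2 CPM in the ZT18 libraries and 25.1 to 57.1 in the others, and the part of erythroid RNA in its level was not tested. The other mitoferrin, Slc25a28, was not called (0.08, adjusted p = 0.742), and its zone difference lay above that of Slc25a37 in 10 of 10 libraries.

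Slc25a39, which imports glutathione, was higher periportally. It had 130 to 323 CPM (median 205) in the pericentral zones and 149 to 393 (median 264) in the periportal ones, with the periportal zone higher in 8 of 10 libraries and a difference of 0.30 ± 0.08 (SE, adjusted p = 0.00423). By library it had 138, 278 and 235 CPM at ZT0, 279 and 286 at ZT6, 198, 336 and 328 at ZT12, and 217 and 234 at ZT18, and no rhythm was called (adjusted p = 0.665). Its relative Slc25a40 was at 3.89 CPM and was not called by zone (adjusted p = 0.666).

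Slc25a47 is a carrier found mainly in liver and was the most abundant member. In the pericentral zones it had 190 to 636 CPM (median 392) and in the periportal ones 193 to 966 (median 530), a difference of 0.56 ± 0.09 (SE, adjusted p = 1.5e-05). The ranges overlapped, but within a library the periportal zone was higher in 9 of 10, with ZT18 B as the exception. Slc25a45, another member of the last group, was called higher pericentrally (-0.46 ± 0.17, SE, adjusted p = 0.045) with 7 of 10 libraries in that direction. That call was lost in 6 of 12 alternative settings and without any 1 of 7 libraries (all but ZT0 B, ZT12 A and ZT18 B), with adjusted p up to 0.293.

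**Figure D3:**
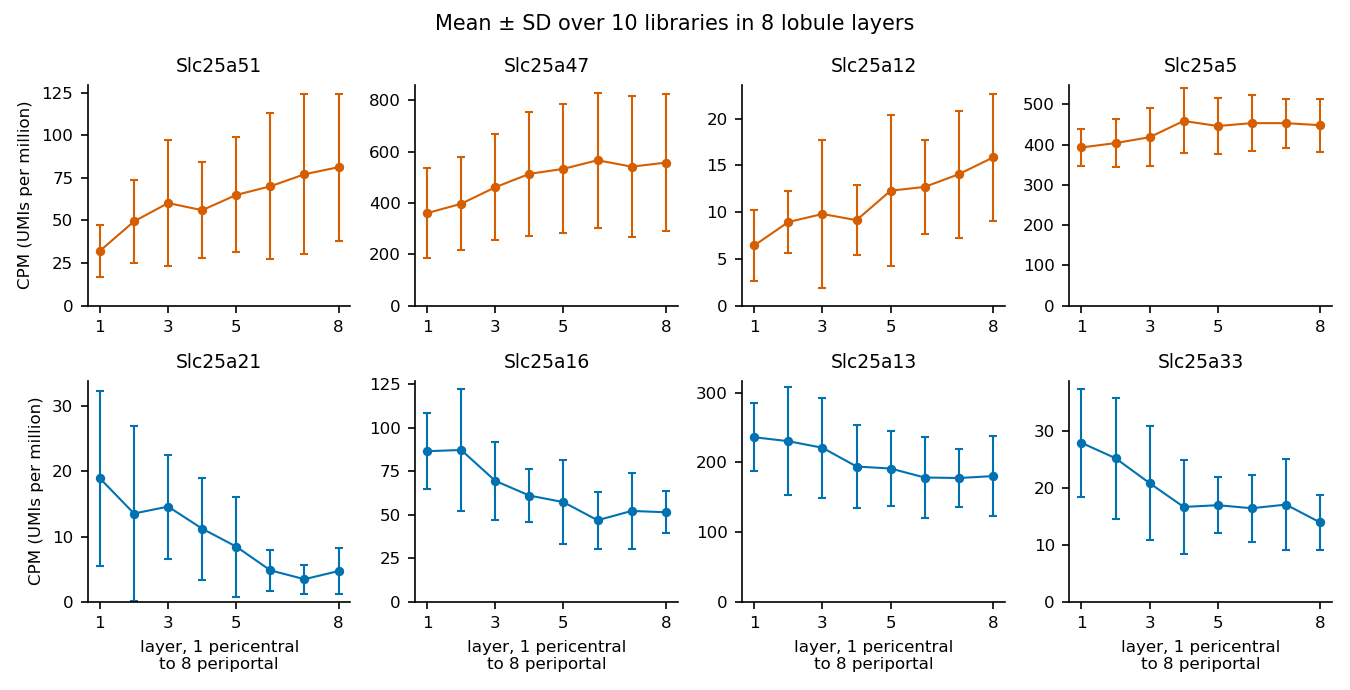
Mean level ± SD over 10 libraries in 8 layers of equal cell number, from 1 (pericentral) to 8 (periportal), for 4 members called higher periportally (orange) and 4 called higher pericentrally (blue). Slc25a51 goes from 32.1 to 81.3 CPM, Slc25a12 from 6.43 to 15.8 and Slc25a47 from 360.2 to 557, while Slc25a21 goes from 18.9 to 4.71 and Slc25a16 from 86.5 to 51.4.

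No member passed the test of the middle zone against both outer zones by edgeR (0 of 31, lowest adjusted p = 0.371), where 0.641% of all genes did. At an unadjusted p under 0.05 there were 4 members, and DESeq2 called 0. With no filter on low counts 1 member, Slc25a47, was called. In the layers its mean was highest in layer 6, at 567 CPM.

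The second comparison asked which carriers vary over the day. In a test of a 24-h rhythm 3 of 31 members (9.68%) passed, Slc25a47, Slc25a10 and Slc25a32, where 5.14% of all genes were called. Between ZT12 and ZT0, 3 members differed, where 3.44% of all genes did; all 3 (Slc25a47, Slc25a10 and Slc25a51) were higher at ZT12, where 1.74% of all genes were. Between ZT18 and ZT6 1 of 31 members (3.23%) was called, Slc25a47, a share near the 3.79% of all genes; it was lower at ZT18, as 1.45% of all genes were. At an unadjusted p under 0.05 the 3 tests gave 7, 7 and 4 members, and DESeq2 called 4, 3 and 1. The median log2 difference from ZT0 to ZT12 was 0.28 over the 31 members and 0.00 over all genes, with 24 members positive and 7 negative. With library size alone the median of all genes moved to 0.13 in that comparison, and the same 3 members were called.

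Slc25a47 was high at ZT6 and ZT12 and low at ZT0 and ZT18. It had 264, 374 and 324 CPM in libraries A, B and C at ZT0, 789.5 and 676 at ZT6, 641, 584 and 769 at ZT12, and 274 and 209 at ZT18. The 5 libraries at ZT6 and ZT12 lay above the 5 at ZT0 and ZT18 with no overlap. The fitted rhythm had an amplitude of 0.89 on the log2 scale (3.42-fold from trough to peak), with the peak at ZT 8.05 and adjusted p = 0.00247. The gene was higher at ZT12 than at ZT0 by 0.91 ± 0.20 (SE, adjusted p = 0.0249) and lower at ZT18 than at ZT6, with a difference of -1.52 ± 0.25 (SE, adjusted p = 0.00591).

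The rhythm of Slc25a47 was called in every alternative and without any 1 of the 10 libraries, with adjusted p up to 0.0472. The ZT12 call was lost without ZT0 A, ZT0 C, ZT6 A, ZT6 B or ZT12 C, with adjusted p up to 0.0804, and among cells with at least 3000 UMIs (adjusted p = 0.0524). The ZT18 call was lost without ZT6 A (adjusted p = 0.0761) or ZT18 B (adjusted p = 0.13). Both ZT18 libraries carry 10x sample indices of 1 plate column that no other library shares, so ZT18 and that column cannot be told apart. Within the columns shared by ZT0 and ZT12 the difference in log2(CPM + 1) was 1.28 (A), 0.64 (B) and 1.24 (C).

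The promoter of Slc25a47 is shown because it was the only member called by zone, by rhythm and in both comparisons of times. It lies at chr12:108850879-108851178 on the plus strand (RefSeq, GRCm38.p6, the same 300-base window), and capitals mark the nuclear receptor half-site AGGTCA, here read on the opposite strand.
Slc25a47: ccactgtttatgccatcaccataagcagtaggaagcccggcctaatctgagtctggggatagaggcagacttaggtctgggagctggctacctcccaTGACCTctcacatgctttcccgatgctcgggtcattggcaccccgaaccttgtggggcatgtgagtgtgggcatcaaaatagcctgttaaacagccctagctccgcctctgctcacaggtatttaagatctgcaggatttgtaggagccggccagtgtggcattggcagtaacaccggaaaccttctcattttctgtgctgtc
Of all promoter windows 16.3% hold this half-site on either strand, and 4 of the 44 member windows do. No window of a member held the D-box TTATGTAA, which 0.938% of all windows hold.

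Slc25a10, the dicarboxylate carrier that exchanges malate or succinate for phosphate, was lowest at ZT0. It had 49.6, 79.7 and 71.8 CPM at ZT0, 110.3 and 119 at ZT6, 115, 130.2 and 164 at ZT12, and 94.9 and 89.7 at ZT18. All 3 libraries at ZT0 lay below the other 7. The rhythm had an amplitude of 0.46 (1.89-fold from trough to peak), a peak at ZT 11.0 and adjusted p = 0.0423, and ZT12 exceeded ZT0 by 0.88 ± 0.19 (SE, adjusted p = 0.0208). The rhythm call was lost without any 1 of 9 libraries, all but ZT12 A (adjusted p up to 0.0989), and without the 5% of cells richest in UMIs (adjusted p = 0.0547). The ZT12 call was lost without ZT0 A, ZT0 C, ZT12 B or ZT12 C (adjusted p up to 0.0809). Within the shared index columns the difference from ZT0 to ZT12 was 1.19, 0.70 and 1.18.

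Slc25a51 was high at ZT12 alone. It had 43.3, 32.7 and 56.4 CPM at ZT0, 52.2 and 44.8 at ZT6, 124, 67.6 and 118 at ZT12, and 34.0 and 44.7 at ZT18, so the 3 libraries at ZT12 lay above the other 7. ZT12 exceeded ZT0 by 1.07 ± 0.25 (SE, adjusted p = 0.0279), and within the index columns by 1.502, 1.026 and 1.052. Without ZT0 B, ZT6 A, ZT12 A or ZT12 C the call was lost (adjusted p up to 0.109), as it was among cells with at least 3000 UMIs (adjusted p = 0.0689). The 24-h rhythm was not called (amplitude 0.54, adjusted p = 0.107). It was called with the library letter as a replicate block (adjusted p = 0.0462) and by DESeq2 (adjusted p = 0.0452). With the sample index column as a block it was also called (adjusted p = 0.00304). The ZT18 libraries fill an index column of their own, so under that block only ZT0, ZT6 and ZT12 set the fitted rhythm.

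Slc25a32, a carrier of folate and flavin adenine dinucleotide, rests on 214 UMIs. It had 4.71, 2.23 and 3.04 CPM at ZT0, 7.72 and 8.50 at ZT6, 9.63, 5.18 and 13.6 at ZT12, and 1.89 and 2.70 at ZT18. In a single library 3 UMIs are worth 0.42 to 2.06 CPM. The 5 libraries at ZT6 and ZT12 lay above the other 5. The rhythm had an amplitude of 1.01 (4.04-fold from trough to peak), a peak at ZT 8.52 and adjusted p = 0.0463. It was lost without any 1 of 8 libraries, all but ZT0 A and ZT12 B (adjusted p up to 0.122), among cells with at least 3000 UMIs (adjusted p = 0.424), and without the cells of highest mitochondrial share (adjusted p = 0.0777). ZT12 against ZT0 missed the threshold (1.23, adjusted p = 0.115) but passed with the sample index column as a block (adjusted p = 0.0137).

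**Figure D4:**
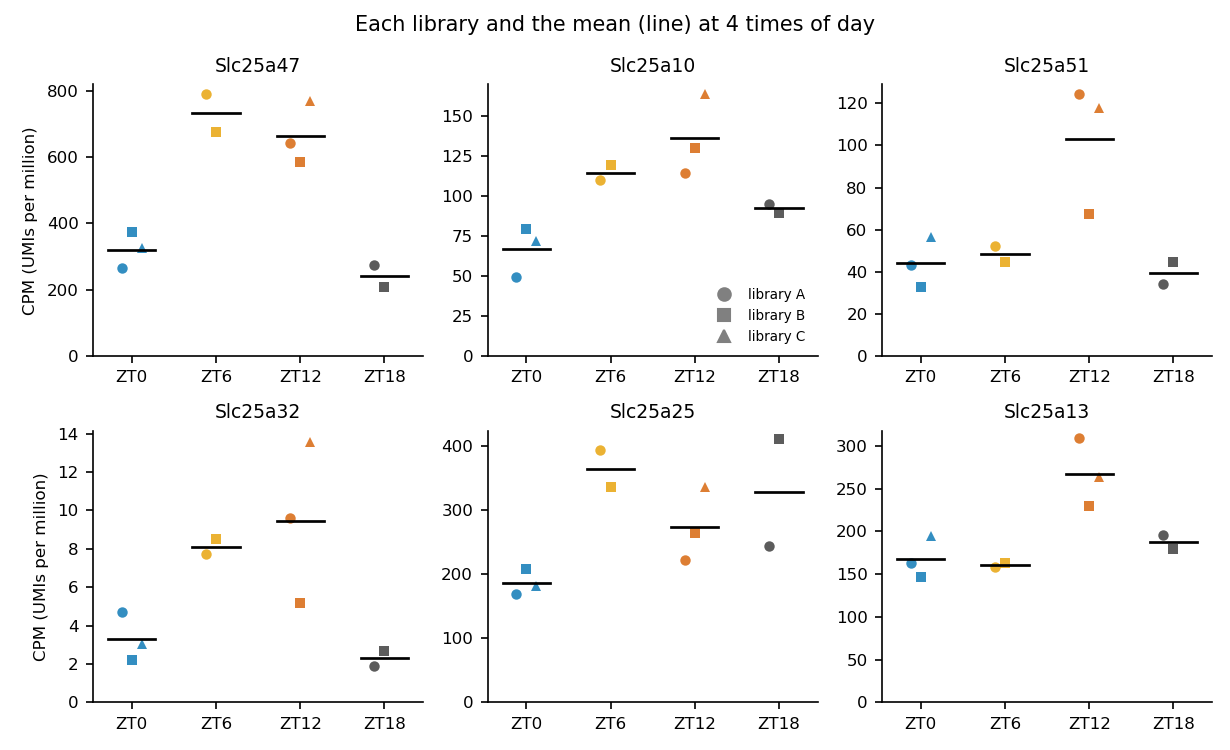
Level in CPM of 6 members at the 4 times, with 1 point per library (shape: library letter) and a line at the mean. Slc25a47 and Slc25a32 have all libraries of ZT6 and ZT12 above those of ZT0 and ZT18, and Slc25a51 and Slc25a13 have the ZT12 libraries above all others.

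Other members had an unadjusted p under 0.05 in a test over time and did not pass after adjustment. The glutamate carrier Slc25a22 had 48.0, 48.3 and 61.6 CPM at ZT0, 88.4 and 90.8 at ZT6, 86.1 and 76.3 in B and C at ZT12, and 57.8 and 55.8 at ZT18, with ZT12 A inside the range of ZT0 (rhythm adjusted p = 0.212). The branched-chain amino acid carrier Slc25a44 had 33.3 and 32.1 CPM at ZT6 and 57.8 and 57.1 at ZT18, but its libraries at ZT12 ran from 21.3 to 58.2 (rhythm adjusted p = 0.203). Slc25a37 had 27.2, 25.1 and 33.8 CPM at ZT0 and 57.1, 31.4 and 56.7 at ZT12 (0.57 ± 0.23, SE, adjusted p = 0.228). Slc25a11 differed between those times by 0.44 ± 0.17 (SE, adjusted p = 0.229).

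The mean summed level of the family was highest at ZT12, with and without Slc25a47. The 3 libraries at ZT0 summed to 2906 ± 240.1 CPM (SD), the 2 at ZT6 to 3579 ± 156, the 3 at ZT12 to 3831 ± 376 and the 2 at ZT18 to 3098 ± 126. Without Slc25a47 it was 2585 ± 189, 2847 ± 75.2, 3166 ± 290.0 and 2856 ± 172. Between zones the sum differed little, at 3286 ± 421 CPM (SD, n = 10) pericentrally, 3384 ± 516 in the middle and 3401 ± 491 periportally, and without Slc25a47 at 2889, 2858 and 2852. The lowest library at ZT12 (3587 CPM) lay below the highest at ZT6 (3689). Without Slc25a47 the lowest at ZT12 (2945) lay below the highest at ZT18 (2978). These sums are scaled by library size alone, under which the median log2 difference of all genes from ZT0 to ZT12 was 0.13. No test was run on these sums.

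The last comparison asked whether the zone difference changes over the day. By edgeR 0 of 32 members passed (lowest adjusted p = 0.77), where 0.0337% of all genes did, and DESeq2 called 0. At an unadjusted p under 0.05 there was 1 member, Slc25a21. In the pericentral zone its mean over the 3 libraries at ZT0 was 12.2 ± 7.03 CPM (SD), over the 2 at ZT6 15.4 ± 5.22, over the 3 at ZT12 25.5 ± 14.5 and over the 2 at ZT18 6.22 ± 2.74, and its mean in the periportal zone lay between 2.65 and 4.99 at every time. At ZT12 the pericentral value was 34.8 and 32.9 CPM in libraries A and C and 8.87 in B.

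Slc25a47 and Slc25a51 had their smallest zone differences at ZT18. For Slc25a47 the mean difference in log2(CPM + 1) over the libraries of ZT0, ZT6, ZT12 and ZT18 was 0.75, 0.42, 0.42 and 0.09, and for Slc25a51 it was 0.89, 0.87, 0.85 and 0.25. The change was not called for either (adjusted p = 0.884 and 0.854). Of the other members called by zone, Slc25a3, Slc25a5, Slc25a13, Slc25a16, Slc25a21, Slc25a42 and Slc25a45 also had the smallest mean difference in size at ZT18. Slc25a11, Slc25a20, Slc25a33 and Slc25a39 had it at another time, and Slc25a12, Slc25a15 and Slc25a37 had their largest at ZT18. Over the other 2178 genes called by zone, the median difference in each gene's own direction was 0.52 and 0.45 in the ZT18 libraries and 0.42 to 0.64 in the other 8. Cell scores made from alternate landmarks correlated least at ZT18, with r of 0.68 and 0.70 against 0.70 to 0.85 elsewhere, and its part in these values was not tested.

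**Figure D5:**
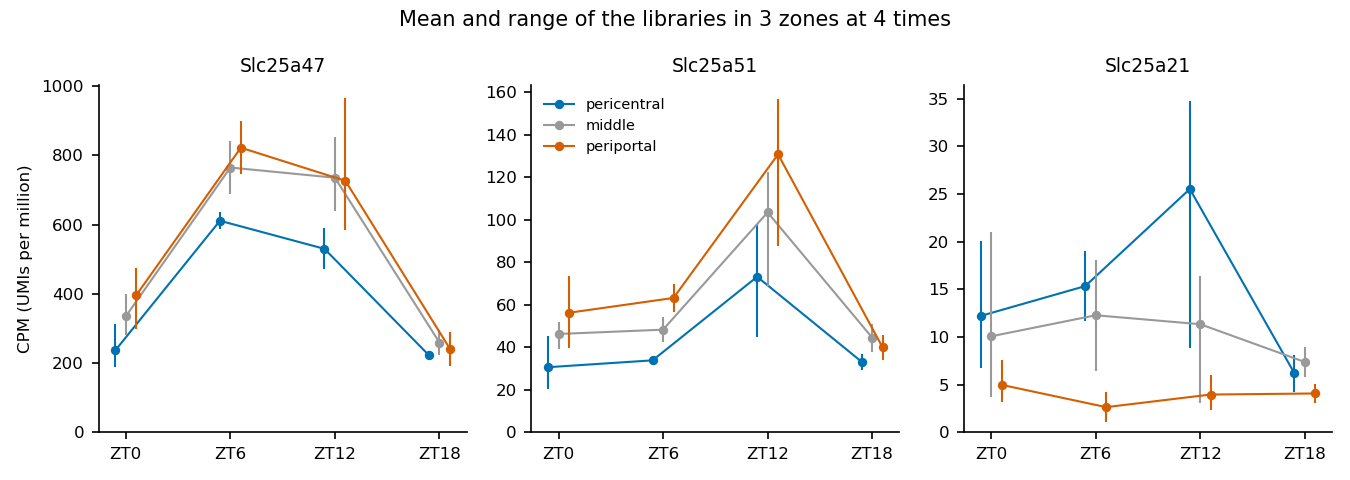
Level in CPM of 3 members in the pericentral (blue), middle (grey) and periportal (orange) zones at the 4 times: points are means of 2 or 3 libraries and vertical lines reach from the lowest to the highest library. For Slc25a47 the zones lie at 222 to 260 CPM at ZT18 and at 611 to 822 CPM at ZT6.

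Genes of the pathways that these carriers serve were set beside them, again by edgeR over all genes. The lists were chosen with earlier results of these data known. Of all genes tested 24.6% were called by zone, 11.9% higher periportally and 12.7% higher pericentrally, and the counts below stand beside these shares. In the urea cycle list 7 of 9 tested genes, with the landmarks Ass1, Asl and Oat left out, were called by zone, 4 higher periportally and 3 pericentrally. Cps1, which makes carbamoyl phosphate in the matrix, differed by 0.75 ± 0.08 (SE), glutaminase Gls2 by 2.90 ± 0.20, and glutamine synthetase Glul by -4.05 ± 0.21. Slc25a15, which links these enzymes to the cytosol, had the same sign as Cps1 and a smaller estimate. In the malate-aspartate list 4 of 6 were called, 2 in each direction, with the cytosolic enzymes Got1 (1.05 ± 0.08, SE) and Mdh1 (0.36 ± 0.06) higher periportally. The 2 higher pericentrally, Gpd1 (-0.25 ± 0.08, SE) and Gpd2 (-0.74 ± 0.14), are enzymes of the glycerol phosphate shuttle, and the mitochondrial enzymes Got2 and Mdh2 were not called (adjusted p = 0.149 and 0.997).

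Of the list of citrate use and fatty acid synthesis 7 of 7 were called, 4 periportal and 3 pericentral. Acly, which splits the citrate exported by Slc25a1, was higher periportally by 1.12 ± 0.12 (SE), and citrate synthase Cs was higher pericentrally (-0.54 ± 0.10). Of 10 genes of the carnitine shuttle and fatty acid oxidation 4 were called, all higher pericentrally as was Slc25a20: Crat (-0.94 ± 0.15, SE), Crot (-0.52 ± 0.07), Hadhb (-0.26 ± 0.07) and Hadha (-0.23 ± 0.07). In the rhythm test, which 5.14% of all genes passed, 1 of the 10 genes of this list was called. It was Cpt1a, the entry enzyme of the shuttle, with an amplitude of 0.83, a peak at ZT 10.6 and adjusted p = 0.00187. Of the urea cycle list 1 of 12 passed that test, Arg1 (peak at ZT 17.7, adjusted p = 0.0371). Of the citrate and fatty acid synthesis list 1 of 7 passed, Fasn (peak at ZT 19.0, adjusted p = 0.015). Of the mitochondrially encoded genes 1 of 13 passed, mt-Nd4l (peak at ZT 5.53, adjusted p = 0.0189). No gene passed in the other pathway lists.

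Inner membrane transporters outside the Slc25a symbols also went both ways, with 6 of 13 called, 3 in each direction. The serine transporter Sfxn1 was higher periportally by 2.21 ± 0.19 (SE), the uncoupling protein Ucp2 higher pericentrally (-1.72 ± 0.21), and both subunits of the pyruvate carrier, Mpc1 (-0.45 ± 0.07) and Mpc2 (-0.34 ± 0.08), higher pericentrally. Of the list of import machinery for carriers, with genes of the Tomm and Timm series, 1 of 10 was called, Timm8b (-0.24 ± 0.07, SE). Of the 13 mitochondrially encoded genes 11 were called, all of them higher periportally.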

How the data were processed

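The deposited files hold UMI counts per gene and cell for 10 libraries, made by the authors with Cell Ranger and builds hg19 and mm10 named, per the submitters' processing notes; the version, the annotation, the filter on cells and the use of strand are not given in the sources used here. All 18378 cells were kept, with 1048 to 10001 UMIs each; cells are named by number only, so shared barcodes could not be counted, and 0 pairs of cell columns were identical. No doublets were called.

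UMIs were summed per library and per zone (3 equal sets of cells, or 8 layers) and tested with edgeR 4.0.16 (R 4.3.3; glmQLFit, glmQLFTest, TMM factors of 0.868 to 1.17) for genes whose mean reached 3 CPM, with Benjamini-Hochberg adjustment over all genes and a threshold of 0.05. Zone tests had the library as a block; the rhythm test had 2 degrees of freedom (cosine and sine of 24 h); 16 landmark genes were left out of the zone backgrounds. An SE is that of the log2 difference. The scripts were checked on simulated counts. DESeq2 1.42.0, other scalings, filters, cell sets and zone cuts, blocks and the leaving out of libraries were alternatives.

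Every member may be named; members past a threshold and the 10 highest are given with values, other genes only from pathway lists. Members and lists were chosen with earlier results of these data known. Of the members, 34 had a RefSeq promoter. Deviations from the mean of their time correlated between ZT0 and ZT12 libraries with the same letter (r of 0.29 to 0.63 over 4341 genes). Other letters gave -0.41 to -0.12. Deviations cancel within a time, so positive values for the same letter bring negative ones among other letters. At ZT0 and ZT12 the letters coincide with columns of the 10x sample index, and same letters at other pairs of times gave -0.11 to 0.21.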

Additional observations from a re-analysis of the deposited data

How the results depend on the processing

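No result changed direction: of 519 values of called members under alternatives, 445 stayed on the same side of the threshold and 74 no longer passed it. The zone calls of Slc25a5, Slc25a21, Slc25a33, Slc25a37, Slc25a47 and Slc25a51 and the rhythm of Slc25a47 held in every alternative run. Among cells with at least 3000 UMIs, 8 members were called by zone and 1 in ZT12 against ZT0, with fewer cells behind each sum. With no filter on low counts, 1 member was called mid against outer zones and 2 in ZT18 against ZT6 (Slc25a32 added). With both ZT18 libraries left out, chosen after seeing the data, 1 member was rhythmic. Leaving out 1 library at a time gave 14 to 16 members by zone, 1 to 2 rhythmic members, 0 to 3 in ZT12 against ZT0 (0 without ZT12 C) and 0 to 2 in ZT18 against ZT6 (0 without ZT6 A or ZT18 B, 2 without ZT12 A, which adds Slc25a44). With the letter as a replicate block 4 members were rhythmic (Slc25a51 added), 3 were called in ZT12 against ZT0, 1 in ZT18 against ZT6 and 0 by zone-dependent rhythm. ZT0 and ZT12 libraries alone with the replicate block, chosen after seeing the data, gave 4 members (Slc25a32 added). With the sample index column as a block 4 were rhythmic (Slc25a51 added) and 5 were called in ZT12 against ZT0. The ZT18 libraries fill a column of their own, so only ZT0, ZT6 and ZT12 set the rhythm under that block. For ZT18 against ZT6 that block could not be fitted. Where no cause is named, the cause was not tested. Apart from the setting with no filter, members with a mean below 3 CPM over the sums of a test were not tested in it, and nothing is said of differences in them.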
